A study of Homo sapiens with 4 samples.

Results

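The comparison described here is between the GFP (+) and the GFP (-) cells of a Nestin promoter reporter line of H1299, with 1 array for each population. These are 2 of the 4 arrays of the series, and they were chosen by the labels alone. H1299 is an established human non-small-cell lung cancer line. The study placed the gene for green fluorescent protein (EGFP) behind the promoter of a stem cell gene, Nestin in one line and Oct4 in the other, sorted cells by fluorescence and compared their transcripts. The Nestin/GFP (+) cells were H1299 cells that carried a stably integrated Nestin promoter/EGFP vector, delivered by electroporation and selected with neomycin, and were collected for high fluorescence. The Nestin/GFP (-) cells were collected for having none. The study describes GFP (-) cells of the reporter lines as cells that appeared in culture after GFP (+) cells had been sorted and plated, which would carry the vector, while the labels call the arrayed GFP (-) cells negative for the reporter vector. Whether the arrayed cells were of that origin was not tested here. No source used here gives whether the stable line was a pool or came from 1 clone. RNA was taken 24 h after sorting, labelled with Cy3 and hybridised to a 1-colour array of human probes (Human OneArray). Each population is labelled as biological replicate 1 and has no second array, so no p-value can be given, and every difference below is between these 2 arrays.

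Nestin is an intermediate filament protein of neural progenitors that assembles together with vimentin and is replaced by other filament proteins as cells differentiate. Its gene is also active in several tumours, where a reporter under its promoter has been used to collect cells with stem cell features. Such a reporter reads the activity of a promoter fragment and a stable fluorescent protein, and the level of the native transcript is a separate measurement. Bone morphogenetic proteins (BMPs) signal through type I and type II receptor kinases to Smad transcription factors, whose best known targets include the ID genes.

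The array held 30968 probes. Of these, 17397 carried 1 gene symbol and 13571 none, which gave 15240 genes. A gene was taken as measured where at least 1 of its probes exceeded, on both Nestin arrays, 3 SD of the noise estimated from the probes below 0. That limit was an intensity of 22.7 on the GFP (+) array and 20.3 on the GFP (-) array. By this rule 4644 genes were measured on both arrays, 1925 were above the limit on 1 array alone (787 on the GFP (+) array and 1138 on the GFP (-) array), and 8671 were above it on neither. The signals were dim, with a median deposited intensity of 7 on the GFP (+) array and 9 on the GFP (-) array. All 4 arrays were quantile normalized together, and a difference is always the log2 normalized intensity in GFP (+) minus that in GFP (-), averaged over the measured probes of the gene.

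The native NES transcript was not above background in either population. The single NES probe read -4 on the GFP (+) array and 20 on the GFP (-) array, against 5 and 2 on the Oct4/GFP (+) and Oct4/GFP (-) arrays. The array therefore gave no level of NES with which to check the sort. The study itself reports a separate measurement, quantitative PCR, with more nestin transcript in Nestin/GFP (+) than in Nestin/GFP (-) cells. SOX2 read 9 and 8 and NANOG read -7 and 10 on the Nestin/GFP (+) and GFP (-) arrays, so both pluripotency regulators were also under the limit. Of the genes typical of H1299 and of lung tumours, 3 of 13 with a probe were measured. VIM, which encodes vimentin, read 1518 in GFP (+) and 772 in GFP (-), a log2 difference of 0.55. CDH2 (N-cadherin) differed by -0.36 and SFTPB, a surfactant protein, by 0.10.

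Most markers of other cell types were at or near the background, with CD3D and ERAF as exceptions. The summed deposited intensity was 23 in GFP (+) and 61 in GFP (-) over 13 endothelial probes, and 134 and 175 over 15 fibroblast and smooth muscle probes. None of the 11 endothelial genes and none of the 13 fibroblast and smooth muscle genes with a probe was measured on both arrays, and the endothelial adhesion gene ESAM, above the limit in GFP (-) alone (17 against 59), was at least 2.43-fold lower. Of 14 leukocyte genes 2 were measured. CD3D, a T cell receptor subunit, read 202 in GFP (+) and 167 in GFP (-) on 1 probe and 0 and 5 on the other, a difference of -0.14. CD79A, a B cell receptor subunit, read 24 and 38, a difference of -0.59. Summed over 16 leukocyte probes, the deposited intensity was 296 in GFP (+) and 278 in GFP (-). Of 3 erythroid genes with a probe 2 were measured, HBD at 0.09 and the haemoglobin chaperone gene ERAF (AHSP) at 1.17 (83 against 31). The part of other cells in the differences below was not tested.

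Between the populations 514 of the 4644 measured genes differed more than 2-fold, which is 11.1%. Of these, 280 were higher in GFP (+), 6.03% of the measured genes, and 234 were lower, 5.04%. Counts of group members past 2-fold below are to be read against these shares. Differences above 4-fold were rare, with 11 genes higher and 18 lower. The median difference over all measured genes was 0.03, the interquartile range was -0.35 to 0.41, and the SD was 0.63. The balance of the 2 directions followed the scaling of the arrays. With each array centred on its median instead, 1350 genes were higher and 65 lower, and the median over all measured genes was 0.67. With the values as deposited 637 were higher and 166 lower, with a median of 0.31, and with an offset of 50 added 51 were higher and 76 lower. Values below are therefore to be read against the median of all measured genes and not as absolute gains or losses of transcript.

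**Figure D1:**
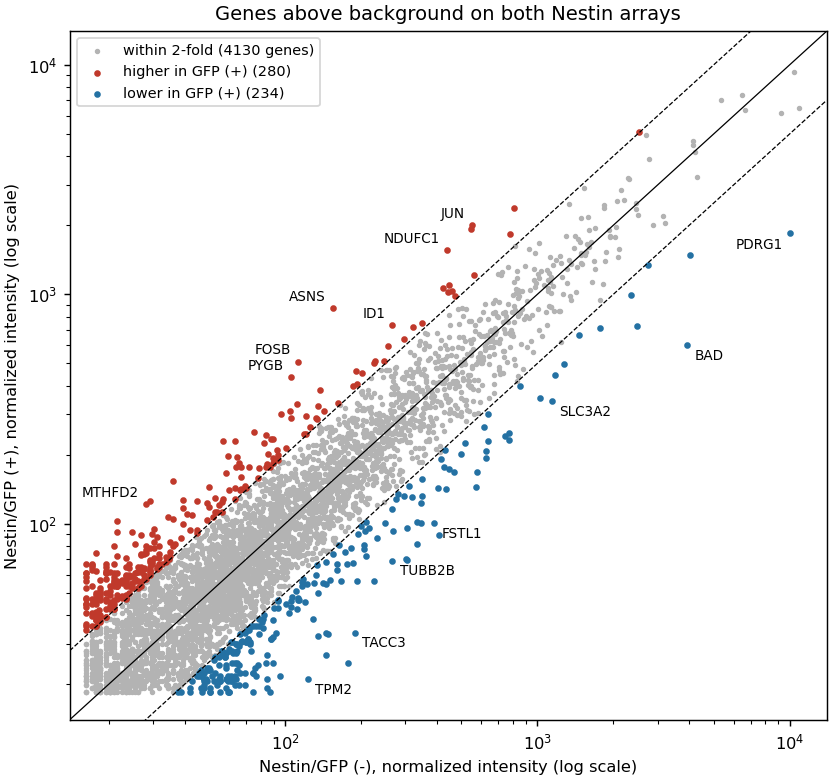
Normalized intensity in Nestin/GFP (+) (vertical axis) against Nestin/GFP (-) (horizontal axis) for the 4644 genes above background on both arrays, both on log scales, 1 point per gene. The solid line marks equal values and the dashed lines 2-fold differences, with 280 genes above the upper line and 234 below the lower one.

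The precision of a single gene's difference was limited, and the probes themselves show by how much. For 361 genes more than 1 probe was measured on both arrays. The differences given by probes of the same gene had an SD of 0.54 around their gene's mean, close to the SD of 0.63 over all genes, and the first and last probe of a gene correlated across these genes with r = 0.19 and rho = 0.20 (genes are not independent replicates). In 33 of these genes the first probe was past 2-fold, the last probe had the same sign in 21 of them, and in 1 it was also past 2-fold. That gene was HNRNPA0, which encodes an RNA-binding protein of the hnRNP family. Its probes read 106 against 44 and 287 against 103, a mean log2 difference of 1.05. Dim genes passed 2-fold more often than bright ones, with 248 of the 1548 lowest genes by level past 2-fold, against 132 of the 1549 in the middle (8.52%) and 134 of the 1547 highest (8.66%). A group of genes rests on many probes, while most single genes below rest on 1. All these probes were read on the same pair of arrays, so the members of a group are not replicates of a population.

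**Figure D2:**
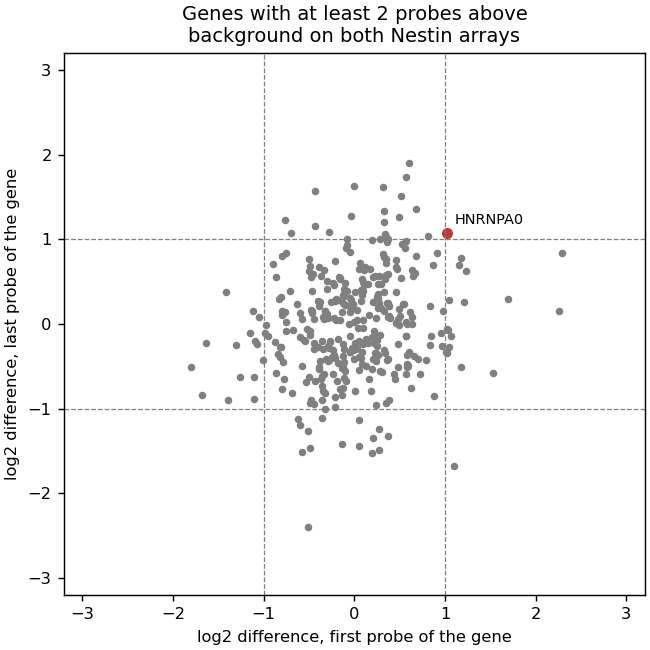
Log2 difference, Nestin/GFP (+) minus Nestin/GFP (-), of the first probe (horizontal axis) and the last probe (vertical axis) of each of the 361 genes with more than 1 measured probe. Dashed lines mark 2-fold, and HNRNPA0, in red, is the 1 gene with both of these probes past 2-fold in the same direction.

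The Nestin arrays resembled each other more than any other pair in the series. Over the 3980 probes above background on all 4 arrays, the rank correlation of the Nestin/GFP (+) and Nestin/GFP (-) arrays was 0.912, while it was 0.757 to 0.785 for the other pairs, the Oct4 pair included. The spread of differences was also smaller in the Nestin line than between the Oct4/GFP (+) and GFP (-) arrays, where the SD was 0.89 and 683 of 3176 measured genes (21.5%) were past 2-fold, 262 of them higher (8.25%) and 421 lower (13.3%). Bounds past 2-fold in the Oct4 line were 298 higher (9.89%) and 553 lower (18.4%) of 3013 genes, together 28.2%. Among 2828 genes measured in both lines, 280 were past 2-fold in the Nestin line. Of these, 26 were past 2-fold in the same direction in the Oct4 line and 47 in the opposite direction, of 578 that were past 2-fold there.

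The genes of amino acid synthesis and of the amino acid response had the highest median of all groups with at least 8 measured members. This response is driven by the transcription factor ATF4, which is translated when uncharged tRNA or endoplasmic reticulum stress activates the eIF2alpha kinases, and which binds composite C/EBP-ATF sites. Of 22 listed genes 20 had a probe and 14 were measured. Of these 14, 6 were past 2-fold higher in GFP (+), against 6.03% of all measured genes, 1 was lower, and 12 lay above 0. The median difference was 0.78, against 0.03 for all measured genes. Relative to all measured genes the group's median lay between 0.22 and 0.83 under 12 other settings.

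ASNS, the enzyme that makes asparagine, had the highest difference among the named genes. It read 1467 in Nestin/GFP (+) and 199 in Nestin/GFP (-), and 331 and 420 on the Oct4/GFP (+) and GFP (-) arrays. The deposited reading was thus highest on the Nestin/GFP (+) array. The normalized intensity was 873 there and 1316 on the Oct4/GFP (-) array, which was then the highest of the 4. After normalization ASNS was 5.65-fold higher in Nestin/GFP (+) (log2 difference 2.50, 2.17 to 3.24 over 12 other ways of processing).

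MTHFD2, the mitochondrial folate enzyme that makes one-carbon units, read 208 against 37 and was 4.35-fold higher. GOT1, the cytosolic aspartate aminotransferase, read 117 against 23, a log2 difference of 2.07. PHGDH, the first enzyme of serine synthesis, read 103 against 25 and was 3.41-fold higher. The GFP (-) readings of GOT1 and PHGDH, 23 and 25, lay only just above the limit of 20.3. Each was past 2-fold in 9 of 11 other settings, with lowest log2 differences of 0.55 and 0.38. PSAT1, the next enzyme of serine synthesis, differed by 0.55 and did not reach 2-fold. DDIT4 and SESN2, inhibitors of mTORC1 signalling, were both 2.64-fold higher. DDIT4 read 304 against 88 and SESN2 116 against 37. DDIT4 and PSAT1 were chosen after their values were seen.

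The direction was not shared by every gene of the pathway. SLC3A2, the heavy chain of the amino acid exchangers, was 3.35-fold lower in GFP (+), at 591 against 1396. SHMT1, the cytosolic serine hydroxymethyltransferase, was above the limit in GFP (-) alone and at least 2.30-fold lower in GFP (+). The transcript of ATF4 itself was 2.06-fold lower, at 168 against 267, and that of DDIT3 (CHOP), an ATF4 target, read 462 against 173, a difference of 0.98 that stayed just under 2-fold. In the Oct4 line none of 10 measured genes of the group was past 2-fold higher in GFP (+) and 3 were lower, with a median of -0.45. ASNS differed there by -1.48 and SESN2 by -2.42. The difference between the lines was not tested, since each rests on 1 pair of arrays.

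The ASNS and GOT1 promoters are shown because both genes were past 4-fold higher and both promoters hold the letters of the C/EBP-ATF composite element, searched as TGATGNAA on both strands of the 250 bases before each RefSeq start (GRCh38.p14). The letters were found in 3 of 12 measured group members with a promoter sequence, ASNS, GOT1 and SLC1A5, which is 25%. They were found in 3.89% of 27305 genes and in 2.07% of 3869 measured genes. A match is a description of the sequence and was not tested as a site. In ASNS (chr7:97872423-97872522, minus strand) the match begins 68 bases upstream of the start, and in GOT1 (chr10:99430769-99430868, minus strand), where it lies on the other strand, 198 bases upstream. Capitals mark the match.
ASNS: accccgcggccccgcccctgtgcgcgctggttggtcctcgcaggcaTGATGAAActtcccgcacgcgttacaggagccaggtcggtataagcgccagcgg
GOT1: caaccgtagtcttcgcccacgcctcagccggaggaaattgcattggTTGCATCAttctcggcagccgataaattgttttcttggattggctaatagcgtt

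The immediate early genes were the next group. They encode mostly transcription factors that are induced within minutes by growth factors, stress or handling, without new protein synthesis, and their messages are short-lived. Of 29 genes with a probe 16 were measured. Of these 16, 4 were past 2-fold higher in GFP (+), against 6.03% of all measured genes, none was lower and 14 lay above 0. The median was 0.73.

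FOSB and JUN, subunits of the AP-1 factor, differed most among the members measured on both arrays. FOSB read 895 in Nestin/GFP (+) and 142 in Nestin/GFP (-), and 181 and 27 in the Oct4 populations. JUN read 3247 and 685 in the Nestin populations, and 969 and 132 in the Oct4 populations. In each line the GFP (+) reading was above the GFP (-) reading for both genes. The normalized difference in the Nestin line was 4.53-fold for FOSB and 3.65-fold for JUN, and in the Oct4 line the log2 differences were 1.87 and 1.61.

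FOS, another AP-1 subunit, read 111 against 30 and was 3.05-fold higher. ZFP36, which encodes an mRNA decay factor for AU-rich messages, read 905 against 315 and was 2.09-fold higher. IER2 differed by 0.81. The zinc finger factor EGR1 read 80 against 17 and the anti-apoptotic gene MCL1 95 against 10, so each was above the limit in GFP (+) alone. The bounds were at least 3.23-fold for EGR1 and at least 3.80-fold for MCL1. In the Oct4 line FOSB and JUN were the 2 genes past 2-fold among 12 measured members, whose median was -0.18. RNA was taken 24 h after sorting, and the part of sorting and handling in these values was not tested.

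The promoters of FOS, FOSB and JUN are shown because these AP-1 genes were all more than 3-fold higher in GFP (+). The letters TGACG, the core of the cyclic AMP response element, were searched on both strands of the same 250 bases. They were found in 7 of 14 measured group members with a promoter sequence (50%), namely DUSP1, FOS, FOSB, FOSL2, IER2, JUN and JUND, in 24.9% of all genes and in 37.9% of measured genes. The windows are chr14:75278716-75278815 (plus strand) for FOS, chr19:45467888-45467987 (plus strand) for FOSB and chr1:58784119-58784218 (minus strand) for JUN. The matches, in capitals, begin 64, 60 and 123 bases upstream of the start in that order. The match is a description only.
FOS: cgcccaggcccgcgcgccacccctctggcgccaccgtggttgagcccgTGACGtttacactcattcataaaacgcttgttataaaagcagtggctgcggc
FOSB: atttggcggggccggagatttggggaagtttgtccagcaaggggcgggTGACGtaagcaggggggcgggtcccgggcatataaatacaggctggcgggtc
JUN: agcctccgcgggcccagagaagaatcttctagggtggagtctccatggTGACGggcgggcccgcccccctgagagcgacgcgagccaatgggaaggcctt

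**Figure D3:**
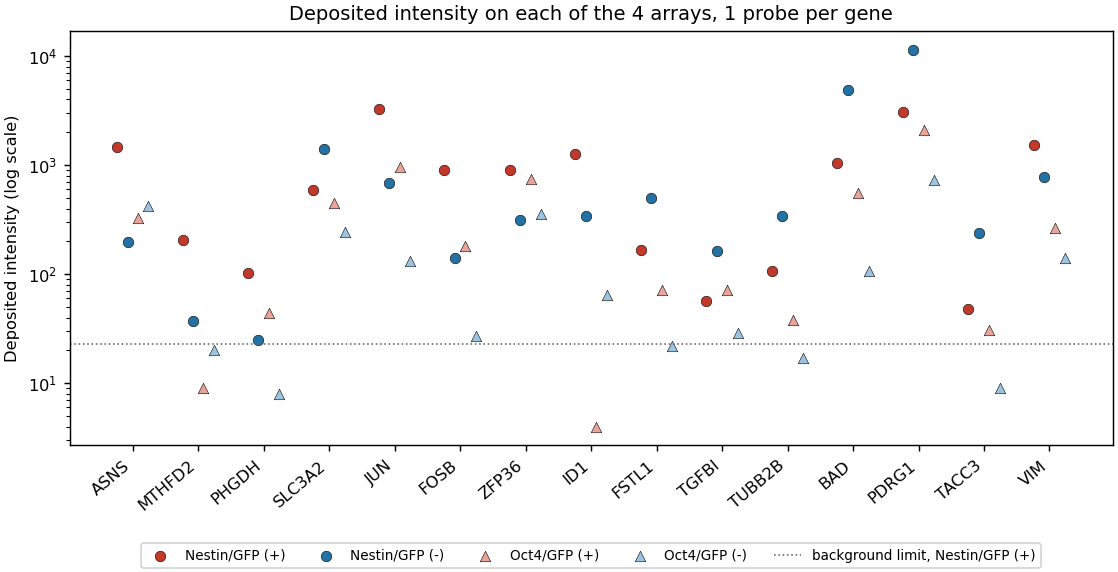
Deposited intensity (vertical axis, log scale) of 15 genes with 1 probe each on the 4 arrays, with circles for the Nestin populations, triangles for the Oct4 populations and a dotted line at the background limit of the Nestin/GFP (+) array. ASNS, MTHFD2, JUN, FOSB and ID1 lie higher in Nestin/GFP (+) than in Nestin/GFP (-), and BAD, PDRG1, TACC3, FSTL1, TGFBI and TUBB2B lie lower.

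The BMP pathway was measured at few of its genes. Most ligands were not detectable at this signal, and of 29 ligand and antagonist genes with a probe 4 were above background on both arrays. BMP2 read 3 in GFP (+) and -10 in GFP (-), and BMP4 read 15 and 21, above the limit in GFP (-) alone and too dim to give a fold. The antagonist GREM1 differed by 0.06 and NBL1 by -0.91. FSTL1, a secreted glycoprotein that binds BMP4, was 3.89-fold lower in GFP (+), at 166 against 496, and was past 2-fold under all 12 other settings. FSTL3, a follistatin-like binder of activin, differed by 0.96.

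Among 18 receptors and Smads 5 were measured, and 1 of these was past 2-fold, against 11.1% of all measured genes. BMPR2, the type II BMP receptor, read 72 against 21 and was 2.90-fold higher in GFP (+), with the GFP (-) reading just above its limit. The type I receptor BMPR1A differed by 0.35, the activin receptors ACVR2A and ACVR2B by 0.10 and -0.81, and SMAD1 by 0.37. SMAD4, the common partner of the receptor-regulated Smads, was above the limit in GFP (+) alone and at least 2.17-fold higher. ACVR1, a type I receptor, was above it in GFP (-) alone and at least 1.34-fold lower. BMPR1B, ACVRL1, SMAD5 and SMAD9 were under the limit on both arrays.

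Of 18 BMP target genes 5 were measured, 2 of them past 2-fold higher (6.03% of all measured genes) and none lower (5.04%), with a median of 0.48, too few genes to describe the pathway. ID1, an inhibitor of basic helix-loop-helix factors, read 1254 in Nestin/GFP (+) and 339 in Nestin/GFP (-), a 2.75-fold difference. On the Oct4 arrays the same probe read 4 in GFP (+) and 65 in GFP (-), so the Oct4/GFP (+) reading stood far below the other 3. ID3 read 463 against 241, a difference of 0.48, and ID2 differed by 0.07. SLC39A1, the 1 measured member of the list below 0, differed by -0.78. HEY1, a repressor induced by both BMP and Notch signals, read 87 against 21 and was 3.48-fold higher, with the GFP (-) reading just above its limit. Its log2 difference ranged from 0.14 to 2.41 over 11 other settings and was past 2-fold in 9. Of 11 measured Notch pathway genes HEY1 was the 1 past 2-fold, which is 9.09%, against 11.1% of all measured genes.

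Of 8 measured genes of the TGF-beta and activin pathway 2 were past 2-fold lower (5.04% of all measured genes) and none higher (6.03%), with a median of -0.19. TGFBI, an extracellular matrix protein induced by TGF-beta, read 57 against 163 and was 3.34-fold lower. TGFBR2, the type II receptor, read 32 against 77 and was 2.42-fold lower. The ligand TGFB2 and the latency protein LTBP3 were above the limit in GFP (-) alone, each at least 2.50-fold lower in GFP (+). SMAD3 differed by 0.73 and LTBP1 by 0.65. Relative to all measured genes the group's median changed sign in 2 of 12 other settings, where it reached 0.40.

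Neural progenitor genes showed no common direction. Of 24 with a probe 6 were measured, with a median of 0.30. Of these 6, 1 was past 2-fold higher and 2 lower, against 6.03% and 5.04% of all measured genes. SOX9, a transcription factor of progenitors and of airway epithelium, read 139 against 51 and was 2.23-fold higher. MSI1, an RNA-binding protein of neural stem cells, read 43 against 94 and was 2.32-fold lower. The chemokine receptor CXCR4 read 25 against 71 and was 2.70-fold lower. Of 6 measured neuronal and neuroendocrine genes 4 lay below 0 and 2 above it, with a median of -0.46. In each direction 1 was past 2-fold, against 6.03% of all measured genes higher and 5.04% lower. The neuronal tubulin TUBB3 was a mean of 2.02-fold higher and the granule protein CHGB 2.36-fold lower. ENO2 and STMN2 differed by -0.83 and -0.77. Relative to all measured genes the group's median lay between -0.82 and -0.14 under 12 other settings. The TUBB3 probes read 63 against 34 and 200 against 61, log2 differences of 0.68 and 1.36.

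None of the 12 measured intermediate filament genes and nestin partners was past 2-fold, and their median was -0.02. Besides vimentin, LMNA and LMNB2 (nuclear lamins) differed by 0.52 and 0.53, and CDK5, a kinase that phosphorylates nestin, by -0.67. None of the 4 measured pluripotency genes was past 2-fold either, with differences of 0.65 for KLF2, 0.53 for the telomerase gene TERT, -0.35 for NODAL and -0.36 for DNMT3B. Of 7 measured cancer stem cell markers, the ectonucleotidase NT5E (CD73) was 2.51-fold higher and CXCR4 lower. CD44, the hyaluronan receptor, read 682 against 352, a difference of 0.50, and BMI1, a Polycomb protein, differed by -0.76. The ubiquitin-conjugating enzyme gene UBE2Q1 read 28 against 61 and was 2.13-fold lower. Its probe read 2918 in Oct4/GFP (+) and 16 in Oct4/GFP (-) cells, so the first of these readings stood apart.

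Genes of the mesenchymal programme lay mostly below 0. Of 9 measured members 4 were past 2-fold lower, against 5.04% of all measured genes, 1 was higher, and the median was -0.36. Relative to all measured genes the group's median lay between -0.417 and -0.005 under 12 other settings. TPM2, a tropomyosin of contractile filaments, was 5.83-fold lower, at 27 in GFP (+) and 155 in GFP (-). MYL9, the regulatory light chain of non-muscle myosin, was 3.04-fold lower at 27 against 84, and its other probe read 4 against 81. MMP14, a membrane-bound matrix metalloproteinase, read 85 against 181 and was 2.57-fold lower, and TGFBI was the other gene of this count. PLAU, the urokinase plasminogen activator, was instead 2.17-fold higher at 2085 against 699.

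Cytoskeleton and matrix genes were shifted less. Of 29 measured cytoskeleton genes 20 lay below 0, with a median of -0.20. TPM2 and TUBB2B were past 2-fold lower and TUBB3 past 2-fold higher, against 5.04% and 6.03% of all measured genes. Of 2 more genes of this list above the limit on 1 array, 1 had a bound past 2-fold higher and none lower. TUBB2B, a beta-tubulin of the developing nervous system, was 3.87-fold lower at 107 against 339. Vinculin (VCL) differed by -0.94 and talin (TLN1) by 0.76. Of 17 measured extracellular matrix and integrin genes 12 lay below 0, with a median of -0.23. Only the collagen chaperone SERPINH1 was past 2-fold among them (5.88%, against 11.1% of all measured genes), at a mean of 2.23-fold lower. Its 2 probes read 438 against 1116 and 159 against 176. Of 4 matrix and integrin genes above the limit on 1 array, 1 had a bound past 2-fold higher and none lower. The shares of all genes above it on 1 array were 9.87% and 7.12%.

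**Figure D4:**
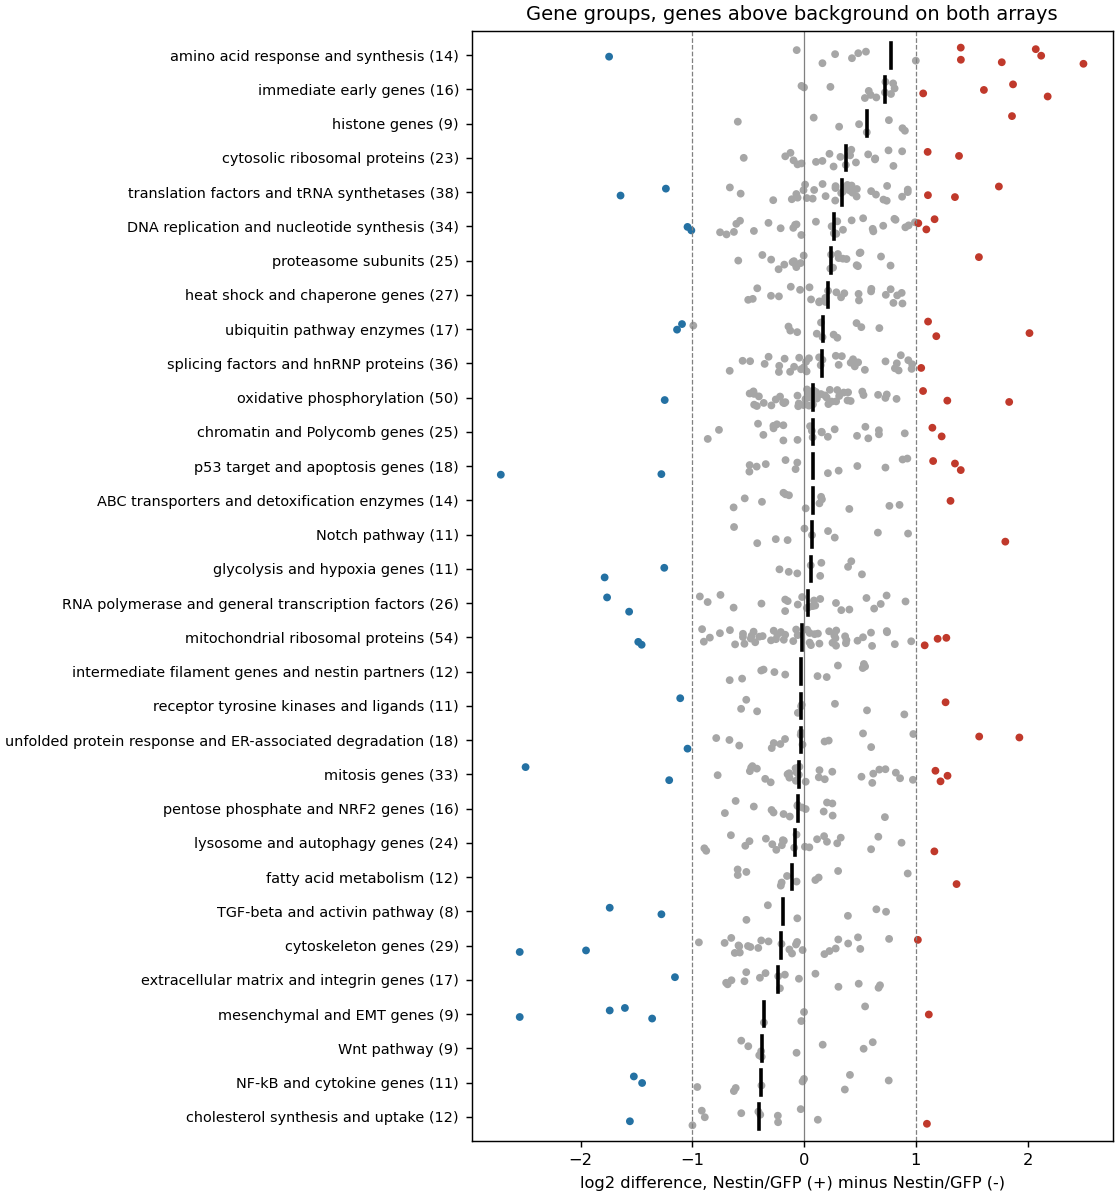
Log2 difference, Nestin/GFP (+) minus Nestin/GFP (-) (horizontal axis), of each gene above background on both arrays, by gene group for groups with at least 8 such genes, whose number is in parentheses. Black bars are group medians and dashed lines mark 2-fold, with amino acid response genes at the top (median 0.78) and cholesterol genes at the bottom (median -0.40).

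The genes of cholesterol synthesis and uptake, which SREBP2 controls as a unit, had the lowest median among groups with at least 8 measured members. Of 12 measured genes 10 lay below 0, and the median was -0.40. In each direction 1 gene was past 2-fold, against 6.03% of all measured genes higher and 5.04% lower. DHCR7, the last enzyme of the Kandutsch-Russell branch, read 87 against 212 and was 2.94-fold lower. IDI1 and FDFT1, enzymes of the isoprenoid and squalene steps, differed by -0.89 and -0.92. ACAT2, which makes the first precursor of the pathway, stayed just under 2-fold lower, with probes at 295 against 473 and 144 against 211. MVK, mevalonate kinase, was above the limit in GFP (-) alone, at 19 against 122, and was at least 5.18-fold lower. INSIG1, which retains the SREBP complex in the endoplasmic reticulum and is itself an SREBP target, was 2.14-fold higher, at 112 against 44. Relative to all measured genes the group's median stayed below 0 under all 12 other settings, between -0.45 and -0.24.

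NF-kB and cytokine genes lay low as well. Of 11 measured genes 8 were below 0, 2 were past 2-fold lower (5.04% of all measured genes) and none higher (6.03%), with a median of -0.38. Relative to all measured genes the group's median stayed below 0 in 11 of 12 other settings, with a range of -0.426 to 0.006. ICAM1, an adhesion molecule induced by NF-kB, read 152 against 340 and was 2.87-fold lower. MIF, a cytokine with tautomerase activity, read 2490 against 4933 and was 2.73-fold lower. The interleukin-1 receptor gene IL1R1 was above the limit in GFP (-) alone, at 10 against 132, and was at least 5.65-fold lower. None of 6 measured interferon and antigen presentation genes was past 2-fold, with a median of -0.40 and values from -0.71 (IFITM1) to 0.79 (IRF1). Of 4 more genes of this list above the limit on 1 array, 1 had a bound past 2-fold higher and none lower. The shares of all genes above it on 1 array were 9.87% and 7.12%.

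The largest differences among genes above the median level belonged to no single list. On the higher side, NDUFC1, a subunit of respiratory complex I, read 2657 in GFP (+) and 544 in GFP (-) and was 3.57-fold higher, and UROD, an enzyme of haem synthesis, read 3181 against 676 and was 3.55-fold higher. RAP1A, a small GTPase of cell adhesion, was 4.29-fold higher at 261 against 47. PYGB, brain glycogen phosphorylase, was 4.12-fold higher at 762 against 134.

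The deubiquitinase UCHL5 of the proteasome was 4.04-fold higher at 396 against 75, and the translation release factor ETF1 was 3.34-fold higher at 345 against 78. RRAGA, a Rag GTPase that signals amino acid supply to mTORC1, was 3.02-fold higher at 340 against 85. The histone gene HIST1H2BK (H2BC12) was 3.63-fold higher, at 396 against 83. The others of the 15 chosen by size were ASNS, FOSB, JUN, NIPA2, CCDC98 (ABRAXAS1), NUP107 and ASPSCR1, the last 4 between 2.99-fold and 3.36-fold higher.

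On the lower side PDRG1, which encodes a small prefoldin-like protein, read 3083 in GFP (+) and 11355 in GFP (-), a 5.45-fold difference. BAD, a pro-apoptotic BH3-only protein, read 1050 against 4927 and was 6.56-fold lower. In the Oct4 line BAD read 559 in GFP (+) and 107 in GFP (-), a log2 difference of 1.14 in the other direction. TMEM159 (LDAF1), a lipid droplet assembly factor, was 7.13-fold lower at 33 against 224. TACC3, a spindle protein that works with clathrin and chTOG, was 5.62-fold lower at 48 against 238.

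PRAF2, an endoplasmic reticulum protein that regulates export of cargo, was 4.57-fold lower, at 144 against 514. PICALM, a clathrin assembly protein, was 4.34-fold lower at 48 against 187, and RAB4B, a GTPase of early endosome recycling, was 3.99-fold lower at 87 against 286. TMEM106B, a lysosomal membrane protein, was 3.97-fold lower at 246 against 717. SEC11C, a catalytic subunit of the signal peptidase, was 4.34-fold lower at 109 against 384. The rest of the 15 were the signalling adaptor gene TRAF2 (47 against 190), FSTL1, TUBB2B, LGTN (EIF2D), ARHGEF16 and AARSD1, from 3.87-fold to 4.48-fold lower. Each of these 15 stayed past 2-fold lower under all 12 other settings.

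Of the 1925 genes above the limit on 1 array, 327 had a bound past 2-fold (17%), with 190 higher (9.87%) and 137 lower (7.12%). The bound sets the bright reading against the floor of the other array, and for 304 genes it gave no fold. The largest lower bounds were those of ATP7B, a copper-transporting ATPase (18 against 146, at least 6.25-fold), and the phosphatase DUSP15 (11 against 134, at least 5.73-fold). IL1R1, MIA2, GTF3C4, MVK, SPSB2 and HOXA7 followed, from at least 5.65-fold to at least 4.56-fold lower. The largest higher bounds were those of EI24, an endoplasmic reticulum protein needed for autophagy (129 against 20, at least 5.01-fold), and the alpha-kinase ALPK1 (125 against 13, at least 4.88-fold). They were followed by FTSJ3, GPR107, NAGS, STXBP5, ACTR5 and SFRS6 (SRSF6), from at least 4.76-fold to at least 4.25-fold higher. CDKN1A, the p53-induced cell cycle inhibitor, read 83 against -2 and was at least 3.32-fold higher.

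Genes of the translation machinery shared a small shift upward. Of 23 measured cytosolic ribosomal protein genes 17 lay above 0, with a median of 0.37. RPL13 (2.61-fold) and RPL15 (2.15-fold) were the 2 past 2-fold higher, against 6.03% of all measured genes. The other RPL13 probe, above the limit in GFP (-) alone, read -8 against 22, and with it averaged in at the floor the log2 difference of RPL13 was 0.75. RPL8 read 7860 against 3350, a difference of 0.88. Ribosomal protein genes have many processed pseudogenes, and whether these probes separate them was not tested. Of 38 measured translation factors and tRNA synthetases 29 lay above 0, with a median of 0.34. ETF1, the synthetase gene EPRS (EPRS1, 2.55-fold) and the initiation factor gene EIF3D (2.15-fold) were past 2-fold higher. KARS (KARS1), lysyl-tRNA synthetase, was 3.12-fold lower at 428 against 957, and EIF3B was 2.36-fold lower at 73 against 142.

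Histone genes had a median of 0.56 over 9 measured genes, 8 of which lay above 0. Besides HIST1H2BK, HIST1H2AC (H2AC6), H2AFX (H2AX) and HIST1H2BD (H2BC5) differed by 0.90, 0.88 and 0.76, and HIST1H1C (H1-2) had a bound of at least 2.47-fold higher. Whether the probes tell the near-identical histone genes apart was not tested. Of 27 measured heat shock and chaperone genes 20 lay above 0, none was past 2-fold, and the median was 0.21. The largest were AHSA1 at 0.88 and BAG3 at 0.87, a co-chaperone of HSP90 and one of HSP70. Proteasome subunits had a median of 0.24 over 25 genes, with PSMB2 past 2-fold at a mean of 2.96-fold, and its 2 probes read 4104 against 667 and 3404 against 1503.

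Mitochondrial genes showed no shift as a group. The median was 0.08 over 50 measured oxidative phosphorylation genes and -0.01 over 54 mitochondrial ribosomal protein genes. The shares past 2-fold, 8% and 9.26% in that order, were near the 11.1% of all measured genes, and single members went both ways. NDUFC1, ATP5J2 (ATP5MF, 2.43-fold) and COX7C (2.09-fold) were higher, and NDUFA1, another complex I subunit, was 2.37-fold lower at 1656 against 2907. Among mitochondrial ribosomal proteins MRPL13, MRPL3 and MRPL30 were 2.42-fold, 2.29-fold and 2.11-fold higher, and MRPL11 and MRPL49 2.80-fold and 2.74-fold lower.

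Endoplasmic reticulum stress genes were not shifted together with the amino acid response. Of 18 measured members of the unfolded protein response and of degradation from the endoplasmic reticulum, 2 were past 2-fold higher and 1 lower. The shares of all measured genes were 6.03% and 5.04%, and the group's median was -0.03. HERPUD1, which organises the degradation complex, was 2.96-fold higher at 539 against 132. SEC61G, a subunit of the translocation channel, was 3.80-fold higher at 101 against 22, with the GFP (-) reading just above its limit. ATF4 was the gene past 2-fold lower, and the stress sensor ATF6 differed by -0.79.

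Cell cycle genes were past 2-fold about as often as measured genes in general (6.03% higher and 5.04% lower). Of 34 measured genes of DNA replication and nucleotide synthesis, 3 were past 2-fold higher and 2 lower, with a median of 0.27. RRM2, the regulated subunit of ribonucleotide reductase, read 1757 against 569 and was 2.25-fold higher, and the licensing factor CDT1 was 2.13-fold higher. CDC6 and MCM5, also of origin licensing, were 2.06-fold and 2.01-fold lower. Of 33 measured mitosis genes 3 were higher and 2 lower, with a median of -0.04. The cyclins CCNB1 (1044 against 325) and CCNB2 (798 against 255) were 2.33-fold and 2.26-fold higher and the kinetochore protein CENPF 2.43-fold higher, while TACC3 and the checkpoint kinase TTK (2.31-fold) were lower.

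Among 18 measured p53 target and apoptosis genes the median was 0.08, and 5 were past 2-fold (27.8%, against 11.1% of all measured genes). SESN2, RRM2B (2.55-fold) and FDXR (2.23-fold) were higher, and BAD and the kinase gene PLK2 (2.42-fold) lower. FDXR read 53 against 21, with the GFP (-) reading just above its limit. Among 11 measured glycolysis and hypoxia genes none was higher past 2-fold (6.03% of all measured genes), and 2 were lower (5.04%). ADM, the peptide adrenomedullin, was 3.44-fold lower at 166 against 440, and PKM2 (PKM), pyruvate kinase, 2.38-fold lower at 47 against 102. ENO1, the glycolytic enolase, read 11226 against 6344, a difference of 0.39. None of 9 measured Wnt pathway genes was past 2-fold, with a median of -0.38, and no Hedgehog pathway gene was measured.

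Receptor tyrosine kinases, airway genes and keratins added few differences. IGFBP6, which binds IGF2, was 2.40-fold higher and PDGFA, a platelet-derived growth factor chain, 2.16-fold lower, while the receptor AXL read 3944 against 1633, a difference of 0.90. None of 7 measured alveolar and airway genes and none of 6 measured epithelial adhesion and keratin genes was past 2-fold. Of 6 measured SOX, POU and KLF factors, SOX9 was higher, and the octamer-binding factors POU2F1 (2.43-fold) and POU2F2 (2.01-fold) were lower.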

How the data were processed

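The deposited table held 1 linear Cy3 intensity per probe and array, with a background already subtracted before deposit, as its negative values show, as whole numbers of which 23.1% to 29.7% were at or below 0. The sources used here give neither the extraction software nor any scaling between arrays. Probes were named from the platform annotation, and 15169 of 15240 symbols were matched to RefSeq.

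The noise SD of each array was estimated from the probes below 0, and a probe was above background past 3 SD (limits of 22.7, 20.3, 15.3 and 13.9 for Nestin/GFP (+), Nestin/GFP (-), Oct4/GFP (+) and Oct4/GFP (-)). All 4 arrays were quantile normalized. A gene's difference was the mean log2 difference over its probes above background on both Nestin arrays, and a gene was counted past 2-fold with no test. A gene above background on 1 array alone was given a bound against the other array's lowest normalized signal above background (18.5 for GFP (+), 16.2 for GFP (-)), or against its own reading where that was higher. The number of arrays, 1 per population, limits the precision.

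Genes were named by rule: those the paper names, the 15 largest differences each way above the median level with probes in 1 direction, genes with at least 2 probes past 2-fold, the 8 largest bounds each way, and up to 5 members of each of 52 lists by size. Bounds past 2-fold among list members were added after their values were seen. The members and lists were chosen with earlier results of these data known. Other scalings, limits, offsets, thresholds and probe rules were run as alternatives. The steps were tested on simulated data. Promoters came from RefSeq (GRCh38.p14). Python 3.11.15, numpy 2.4.6, pandas 2.3.3 and statsmodels 0.14.6 were used.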

Additional observations from a re-analysis of the deposited data

Results flagged for a closer look

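Of the genes named above 121 were past 2-fold in the Nestin line, bounds included. For 21 of these the Oct4 line was past 2-fold in the opposite direction between GFP (+) and GFP (-) cells. FOSB and JUN were among those past it in the same direction. Among the 2828 genes measured in both lines, 280 were past 2-fold in the Nestin line. Of these, 47 were past it in the opposite direction in the Oct4 line and 26 in the same direction. Each line has 1 pair of arrays, so the difference between the lines was not tested, and no explanation is weighed. The log2 differences in the Oct4 line, opposite in sign to those of the Nestin line, were -1.48 for ASNS, -2.42 for SESN2 and -1.76 for HERPUD1. They were -2.27 for CDT1, -1.48 for SOX9, -1.18 for CCDC98, -1.09 for NIPA2 and -1.04 for INSIG1. In the other direction they were 2.32 for PLK2, 1.19 for MMP14, 1.18 for MRPL11, 1.14 for BAD, 1.04 for EIF3B and 1.03 for MRPL49. For 3 more the Oct4 value is a bound, because the probe was under the limit on the Oct4/GFP (+) array: -3.52 for ID1 (4 against 65), -1.68 for COX7C (4 against 21) and -1.60 for MTHFD2 (9 against 20). UBE2Q1 gave 6.46, from readings of 2918 in Oct4/GFP (+) and 16 in Oct4/GFP (-) cells, while the Nestin arrays read 28 and 61. For another 3 the Nestin value is a bound: ACTR5 was higher in Nestin/GFP (+) and gave -2.06 in the Oct4 line, while ESAM and SPSB2 were lower and gave 2.11 and 1.40 there, both of these also bounds.

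Probes with no gene symbol entered no comparison above. Of these, 1809 were above background on both Nestin arrays and 200 were past 2-fold, 100 in each direction. That share, 11.1%, is the same as among genes with a symbol.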

How the results depend on the processing

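The number of genes past 2-fold, 514 (280 higher and 234 lower) with 327 bounds, depended on the scaling and on how dim signals were treated. With each array centred on its median it was 1415 (1350 and 65), and with values as deposited 803, of which 637 were higher. A background limit of 2 noise SD gave 440 higher genes, one of 5 noise SD gave 301 (155 and 146) with 189 bounds, and one of 10 noise SD gave 174 (87 and 87) with 39 bounds. An offset of 50 with no limit gave 127 (51 and 76). Among genes at or above the median level there were 194 (93 and 101) and 0 bounds. No gene above the limit on 1 array alone reached that level with its dim reading taken as in the bound. A threshold of 1.5-fold gave 1476 (812 and 664), and one of 4-fold 29 (11 and 18). Quantile normalization of the Nestin arrays alone, centring on the probes above background, a loess correction and the other probe rules kept the counts of measured genes within 1.5 times.

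Of the 121 genes named here that were past 2-fold, bounds included, 96 stayed past it after median centring, 112 with values as deposited, 104 at 5 noise SD, 61 with the offset of 50, and 118 to 121 under the other scalings, at 2 noise SD and under the other probe rules. At 10 noise SD 107 had a value and 69 were past 2-fold. No named gene past 2-fold changed direction. No paired analysis was possible because each population had 1 array and the populations share replicate number 1 alone, and for the same reason no array could be left out.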
